A study of Mus musculus with 4 samples.

Results

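The CC chemokines *Ccl2*, *Ccl5*, *Ccl7*, *Ccl8*, *Ccl9*, *Ccl11* and *Ccl20* were followed through cultured fat-derived cells of the mouse. These 7 genes, taken by symbol from a table of 32285 genes, were measured in 4 droplet-based scRNA-seq libraries, and their level, the share of cells in which they were found and their distribution over cells are described. The study compared de-differentiated fat (DFAT) cells with cultured cells of the stromal vascular fraction (SVF), each from inguinal (iWAT) and epididymal (eWAT) white adipose tissue of male C57BL/6J mice fed chow diet, with no transgene and no treatment in these 4 libraries. DFAT cells came from mature adipocytes that floated after collagenase digestion and attached to the upper surface of a filled flask ("ceiling culture"), whereas SVF cells were the pelleted cells of such a digest, seeded in dishes and expanded. The adherent cells were detached with trypsin, sorted after 7-AAD staining, a dye that enters dead cells, and barcoded with 10x 3′ chemistry. The age of the mice, the number pooled and the days in culture of these libraries were not given in the sources used here.

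Chemokines are small secreted proteins that draw leukocytes along a gradient, and the CC class is named for a pair of neighbouring cysteines. CCL2 and CCL7 act mainly through the receptor CCR2 on monocytes, CCL8 is a close relative of both, CCL11 attracts eosinophils through CCR3, CCL5 and CCL9 act on CCR1 among others, and CCL20 is the ligand of CCR6. In adipose tissue CCL2 is known for the recruitment of monocytes that become macrophages, and many of these genes are targets of NF-κB and of interleukin-1, tumour necrosis factor or interferon signals in fibroblasts.

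Each library was 1 sample of its kind, named here iWAT_DFAT, eWAT_DFAT, iWAT_SVF and eWAT_SVF. Hence no difference could be tested against the spread between cultures, and a difference between depots or between culture routes cannot be told apart from one between single cultures or libraries. Barcodes with 5000 to 75000 UMIs (unique molecular identifiers, counted mRNA molecules), 200 to 7500 genes and under 10% mitochondrial UMIs were kept, which gave 7629, 6464, 7424 and 6745 cells in that order, 28262 in all. The median cell held between 22111 and 27617 UMIs, and pairs of libraries shared 13 to 20 cell barcodes, at most 0.297% of the smaller library. UMIs of at least 3 of 7 stromal markers, such as *Pdgfra* and *Col1a1*, were found in 98.7%, 91.5%, 96.2% and 95.8% of the cells, in the same order. *Ptprc*, the pan-leukocyte gene, was at most at 0.486 CPM, and 2, 2, 3 and 26 cells held at least 3 of 10 immune markers. The 7 adipocyte markers summed to 26.3, 106, 0.582 and 1.67 CPM. Levels are given as CPM, the UMIs of a gene summed over all cells of a library and scaled to a total of 1000000, with an exact Poisson interval of 95%, and shares of cells with an exact Clopper-Pearson interval of 95%. Such intervals cover counting error only. As 3′ counting takes 1 UMI for each captured molecule whatever its length, CPM values were also set side by side between genes.

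By the GENCODE annotation of the mm10 (GRCm38) build, 6 of the 7 genes lie on chromosome 11. *Ccl2* (chr11:82035571-82037453), *Ccl7* (chr11:82045712-82047525), *Ccl11* (chr11:82057823-82062955) and *Ccl8* (chr11:82115185-82116799), all on the plus strand, lie within 81229 bases. *Ccl5* (chr11:83525778-83530518) and *Ccl9* (chr11:83572919-83578636) form a second group on the minus strand, and *Ccl20* stands alone on the plus strand of chromosome 1 (chr1:83116766-83119167). Of these genes, *Ccl2* overlaps 1 annotated gene, *Gm17268*, on the opposite strand, and the others overlap none.

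Promoters from RefSeq (GRCm38.p6) were at hand for 3 of the 7 genes, *Ccl8*, *Ccl9* and *Ccl20*. They are shown because each of these genes was highest in another library (*Ccl8* in iWAT_DFAT, *Ccl9* in eWAT_SVF and *Ccl20* in eWAT_DFAT). The 250 bases before the annotated start, 5′ to 3′ on the strand of the gene, stand in lower case with each motif match in capitals.
Ccl8 (chr11:82114935-82115184, plus strand): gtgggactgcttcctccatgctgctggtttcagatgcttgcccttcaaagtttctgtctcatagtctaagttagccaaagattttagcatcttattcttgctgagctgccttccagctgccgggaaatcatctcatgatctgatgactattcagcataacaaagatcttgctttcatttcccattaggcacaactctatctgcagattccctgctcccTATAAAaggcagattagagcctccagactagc
Ccl9 (chr11:83578637-83578886, minus strand): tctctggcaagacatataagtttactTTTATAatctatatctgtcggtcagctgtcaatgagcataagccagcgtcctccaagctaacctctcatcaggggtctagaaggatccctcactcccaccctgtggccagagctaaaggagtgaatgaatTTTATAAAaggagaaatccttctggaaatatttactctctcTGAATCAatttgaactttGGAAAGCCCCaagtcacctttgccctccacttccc
Ccl20 (chr1:83116516-83116765, plus strand): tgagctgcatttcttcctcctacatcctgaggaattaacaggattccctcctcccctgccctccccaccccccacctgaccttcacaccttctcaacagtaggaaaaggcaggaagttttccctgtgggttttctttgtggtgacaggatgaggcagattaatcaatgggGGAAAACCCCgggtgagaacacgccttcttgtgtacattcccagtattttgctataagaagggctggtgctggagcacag
Both strands were searched for TATAAA, for TGANTCA (the AP-1 site), for the interferon-stimulated response element and for the κB consensus, the binding sequence of NF-κB. *Ccl8* held TATAAA, which begins 32 bases before the start, and none of the other motifs. *Ccl9* held a κB match from 35 to 26 bases before the start on the reverse strand and TGANTCA from 53 to 47 bases before it. It also held TATAAA on both strands, as overlapping copies between 94 and 87 bases before the start and as a reverse copy from 224 to 219. *Ccl20* held a κB match from 80 to 71 bases before the start on the reverse strand. The interferon-stimulated response element had no match in these windows. Of 32851 promoters of the same length, 12.4% held TATAAA, 6.75% TGANTCA, 2.98% the interferon-stimulated response element and 7.25% the κB consensus. A match describes letters only.

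*Ccl2* was the most abundant of the 7 genes in both DFAT libraries. It was at 2816 CPM (2809 to 2824) in iWAT_DFAT, 3031 CPM (3023 to 3039) in eWAT_DFAT, 257 CPM (255 to 259) in iWAT_SVF and 119 CPM (118 to 121) in eWAT_SVF. Both DFAT libraries were thus far above both SVF libraries, by 3.45 on the log2 scale in iWAT and 4.67 (25.4-fold) in eWAT. The level was nearly the same in the DFAT libraries of the 2 depots (log2 ratio of iWAT to eWAT -0.11, interval -0.11 to -0.10), whereas among SVF libraries it was 2.15-fold higher in iWAT.

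*Ccl2* was found in nearly every DFAT cell and in part of the SVF cells. It had a UMI in 99.6% of iWAT_DFAT cells, 98.1% of eWAT_DFAT cells, 71.4% of iWAT_SVF cells and 49.0% of eWAT_SVF cells. With every cell thinned to 5000 UMIs, so that depth was equal, the shares were 98.3%, 93.8%, 42.5% and 23.9%. Their intervals did not overlap, but they cover counting error within each library and not the spread between cultures. The order of the libraries was the same at both depths. The median cell held 26.6 UMIs of *Ccl2* per 10000 UMIs in iWAT_DFAT and 22.0 in eWAT_DFAT, against 0.813 in iWAT_SVF and 0 in eWAT_SVF. Cells of eWAT_DFAT ranged more widely, with a 10th percentile of 2.75 and a 90th percentile of 66.9, against 9.63 and 48.9 in iWAT_DFAT.

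Free RNA held *Ccl2* as well. In droplets of 1 to 100 UMIs it was at 3941, 3536, 294 and 133 CPM in iWAT_DFAT, eWAT_DFAT, iWAT_SVF and eWAT_SVF, and the ratio of its level in cells to that in free RNA was 0.715 to 0.897. Cells with at least 3 of 8 glial markers, a cell type not known as a main source, were taken as a gauge of background. The 18 such cells of iWAT_DFAT (median 11726.5 UMIs, against 22111 in the library) held a *Ccl2* UMI in 44.4% after thinning, and the 146 such cells of iWAT_SVF (median 11393, against 24930) in 25.3%. Both shares were below those of the whole libraries, 98.3% and 42.5%, by a wider margin in iWAT_DFAT. In iWAT_DFAT, endothelial-, pericyte- and adipocyte-marker cells held one in 50%, 70% and 77.1%. Endothelial-marker cells held one in 69.0% in iWAT_SVF, 64.6% in eWAT_DFAT and 53.0% in eWAT_SVF. In eWAT_SVF the 26 immune-marker cells did in 80.8%, mesothelial-marker cells in 45.8% and pericyte-marker cells in 16.3%. In the SVF libraries some marker classes thus lay above and others below the library share. No glial-marker cell was found in eWAT_SVF, so the share of 23.9% has no such gauge. In eWAT_DFAT the 118 cells with at least 3 of 7 pericyte markers had 6264 CPM of *Ccl2* and held 3.08% of its UMIs.

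*Ccl7* followed *Ccl2* in its order between culture routes. It was at 1047 CPM (1042 to 1051) in iWAT_DFAT, 1049 CPM (1044 to 1054) in eWAT_DFAT, 287 CPM (285 to 290) in iWAT_SVF and 134 CPM (132 to 135) in eWAT_SVF. The DFAT libraries did not differ beyond counting error (log2 ratio -0.0029, interval -0.012 to 0.0062), and the SVF libraries differed by 2.15-fold with iWAT higher. The distance from DFAT to SVF was smaller than that of *Ccl2*, 3.64-fold in iWAT and 7.84-fold in eWAT. In both SVF libraries *Ccl7* had more UMIs than *Ccl2* (57258 against 51208 in iWAT and 26424 against 23573 in eWAT), while in both DFAT libraries it had fewer.

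Thinned to 5000 UMIs, 93.1% of iWAT_DFAT, 84.8% of eWAT_DFAT, 55.4% of iWAT_SVF and 33.0% of eWAT_SVF cells held a *Ccl7* UMI. *Ccl7* was therefore found in more SVF cells than *Ccl2*. The glial-marker cells of iWAT_SVF held one in 15.1% and those of iWAT_DFAT in 22.2%. Other marker classes held one more often. Endothelial- and pericyte-marker cells did in 32.8% and 49.7% in iWAT_SVF. In iWAT_DFAT, endothelial-, pericyte- and adipocyte-marker cells did in 45.5%, 60% and 68.6%. The median *Ccl7* level was 9.38, 7.59, 1.69 and 0.491 UMIs per 10000 in iWAT_DFAT, eWAT_DFAT, iWAT_SVF and eWAT_SVF.

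**Figure D1:**
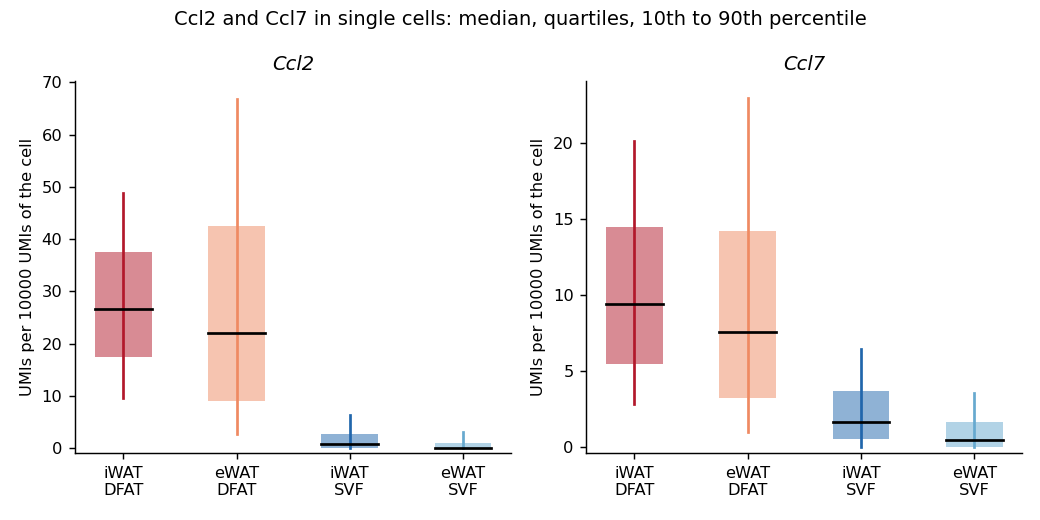
Spread of *Ccl2* (left) and *Ccl7* (right) over the cells of each library, in UMIs per 10000 UMIs of the cell; black lines are medians, boxes the quartiles and vertical lines the 10th to 90th percentile. The DFAT medians of *Ccl2* are 26.6 and 22.0, and those of the SVF libraries 0.813 and 0.

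*Ccl2* and *Ccl7* also varied together from cell to cell. Among genes found in at least 5% of the cells of a library, *Ccl7* was the gene most correlated with *Ccl2*, with Pearson's r of 0.70 over 7629 cells of iWAT_DFAT, 0.80 over 6464 of eWAT_DFAT, 0.59 over 7424 of iWAT_SVF and 0.49 over 6745 of eWAT_SVF. The values are descriptive, and cells of a library share its free RNA and its range of depths. Further genes are ordered by the number of libraries in which they were among the top 20. By this order the next for *Ccl2* was *Cxcl1*, a neutrophil attractant, with r of 0.51, 0.67, 0.18 and 0.20. For *Ccl7* the next were *Cxcl1* (0.44, 0.60, 0.23 and 0.23) and *Ptx3*, a soluble pattern-recognition protein (0.46, 0.42, 0.28 and 0.34). *Nfkbia*, the inhibitor that NF-κB induces as its own feedback, was also among the 5 genes named for *Ccl2*, with 0.40, 0.41, 0.14 and 0.28. In r with *Ccl2*, *Ptx3* exceeded *Cxcl1* in iWAT_DFAT (0.53) and iWAT_SVF (0.21), and *Nfkbia* did in eWAT_SVF.

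The 10% of cells with the most *Ccl2* UMIs had more *Ccl7* in each library, at 1517 CPM against 966 CPM in the other cells of iWAT_DFAT and at 2207 CPM against 865 CPM in eWAT_DFAT. In iWAT_SVF the values were 729 and 225 CPM, and in eWAT_SVF 413 and 99.3 CPM. The contrast was widest in the SVF libraries, where fewer cells held either gene.

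*Ccl8* was close to a gene of a single library. It was at 35.8 CPM (35.0 to 36.7) in iWAT_DFAT, 2.27 CPM (2.06 to 2.50) in eWAT_DFAT, 1.39 CPM (1.24 to 1.57) in iWAT_SVF and 0.370 CPM (0.290 to 0.465) in eWAT_SVF. The level in iWAT_DFAT was 15.8-fold above eWAT_DFAT and 25.7-fold above iWAT_SVF. Of the genes tested between the DFAT libraries, 0.347% had a larger ratio in favour of iWAT. Thinned to 5000 UMIs, 13.3% of iWAT_DFAT cells (12.5 to 14.0) and at most 0.928% of the cells of any other library held a *Ccl8* UMI. At full depth the share of iWAT_DFAT was 31.0%.

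In iWAT_DFAT, 5.20% of the cells held 50% of the *Ccl8* UMIs, and the top 10% held 68.4%. The genes most like it there were *C3* and *Cfb* (complement components), *Serping1* (an inhibitor of the classical complement pathway), *Dcn* (the matrix proteoglycan decorin) and *Itm2b*, with r of 0.35 to 0.39 over 7629 cells. The top 10% of cells for *Ccl8* had 166 CPM of *Ccl11*, against 46.4 CPM in the rest, and 7686 CPM of the acute-phase gene *Saa3*, against 2612 CPM. *Ccl2* differed little between them, at 3233 and 2771 CPM. *Ccl8* was lower in deeper cells, at 65.1, 36.2 and 23.2 CPM in the lower, middle and upper tertile of cells by UMIs, and lower in the 3701 cells with at least 3 of 6 proliferation markers (20.6 CPM) than in the other 3928 (55.5 CPM). The part of depth and of proliferation in these values was not tested. The 18 glial-marker cells held a *Ccl8* UMI in 5.56% after thinning, 1 cell. The 22 endothelial-, 20 pericyte- and 35 adipocyte-marker cells did in 9.09%, 10% and 5.71%, against 13.3% of the library. Free RNA held 56.3 CPM of *Ccl8* in iWAT_DFAT and 11.3 CPM in eWAT_DFAT, and the ratio of cells to free RNA was 0.637 and 0.200. In eWAT_DFAT, 7 cells with at least 10 *Ccl8* UMIs held 31.8% of them, and its other positive cells cannot be told apart from background.

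*Ccl11* was a DFAT gene in both depots. It was at 58.2 CPM (57.1 to 59.3) in iWAT_DFAT and 29.2 CPM (28.4 to 30.0) in eWAT_DFAT, and at 1.57 CPM (1.40 to 1.75) in iWAT_SVF and 3.07 CPM (2.83 to 3.32) in eWAT_SVF. The DFAT level was 37.1-fold above SVF in iWAT and 9.52-fold above it in eWAT. Between the DFAT libraries iWAT was 1.99-fold higher, just under the 2-fold line. Between the SVF libraries the order was the opposite, at levels below 5 CPM.

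Thinned, *Ccl11* was found in 15.7% and 7.89% of the DFAT cells of iWAT and eWAT and in 0.647% and 1.33% of the SVF cells. The 158 cells of eWAT_DFAT with at least 3 of 8 endothelial markers (median 12328.5 UMIs, against 27425) held one in 1.27%, the pericyte-marker cells in 10.2% and the adipocyte-marker cells in 9.28%. Cells that held 50% of its UMIs made up 4.09% of iWAT_DFAT and 2.01% of eWAT_DFAT. The 5 genes named as most like it, each in the top 20 of both DFAT libraries, were *Dcn*, *Serping1*, *C3*, *Col3a1* and *Saa3* (r of 0.20 to 0.26). In iWAT_DFAT the r with *Ccl8*, 0.26, exceeded that with each of these, which was at most 0.24. *Ccl8* was found in 2.91% of eWAT_DFAT cells and so did not enter there. *Dcn*, *Serping1* and *C3* were also among the 5 named for *Ccl8*, whereas the *Ccl2* and *Ccl7* names (*Cxcl1*, *Cxcl5*, *Ptx3*) were not. *Ccl11* was lower in cells with proliferation markers, at 45.8 against 74.2 CPM in iWAT_DFAT and 23.2 against 39.5 CPM in eWAT_DFAT.

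*Ccl9* was the only one of the 7 genes with its highest level in an SVF library. It was at 9.84 CPM (9.39 to 10.3) in iWAT_DFAT, 7.07 CPM (6.69 to 7.46) in eWAT_DFAT, 5.54 CPM (5.22 to 5.88) in iWAT_SVF and 45.8 CPM (44.8 to 46.7) in eWAT_SVF. The eWAT_SVF level was 8.26-fold above iWAT_SVF and 6.47-fold above eWAT_DFAT, and 0.572% of the genes tested between the SVF libraries had a ratio further towards eWAT. Thinned, 12.6% of eWAT_SVF cells (11.8 to 13.4) held a *Ccl9* UMI, against 4.09%, 2.72% and 2.22% in iWAT_DFAT, eWAT_DFAT and iWAT_SVF. The 168 endothelial-marker cells of eWAT_SVF (median 17136.5 UMIs, against 27617) held one in 1.19%, the 517 mesothelial-marker cells in 2.71% and the 80 pericyte-marker cells in 5.0%. As eWAT_SVF had no glial-marker cells and eWAT_DFAT only 2, other marker classes were used for the eWAT libraries. Free RNA had 10.8, 17.5, 10.2 and 39.2 CPM of *Ccl9*, and in eWAT_SVF alone the level in cells exceeded it (ratio 1.17, against 0.914, 0.403 and 0.542).

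Cells with markers of another type held the smaller part of the *Ccl9* UMIs in eWAT_SVF and in both DFAT libraries. In eWAT_SVF, 26 cells with immune markers had 448 CPM of *Ccl9* and held 2.83% of its UMIs, and the 517 cells with at least 3 of 7 mesothelial markers had 9.77 CPM and held 1.44%. With all cells of the 6 other marker lists left out (immune, endothelial, mesothelial, pericyte, glial and adipocyte), the level was 48.1 CPM, so the larger part of its UMIs lay in cells outside these lists. Of the 215 eWAT_SVF cells with at least 10 *Ccl9* UMIs, 209 held at least 3 stromal markers, as did 95.8% of all cells of the library. A UMI of *Ptprc*, which is only 1 of the 10 immune markers, was found in 9 of the 215. *Ptprc* was at 0.486 CPM in this library. The share of all its cells with a *Ptprc* UMI was not measured, so 9 of 215 does not show that leukocytes were few among them. Only marker classes of at least 10 cells were measured, which leaves out the 2 immune-marker cells of each DFAT library. Among those measured in the DFAT libraries, *Ccl9* was highest in cells with at least 3 of 7 adipocyte markers. These had 116 CPM in 35 cells of iWAT and 66.2 CPM in 194 cells of eWAT. They held 5.42% of the *Ccl9* UMIs of iWAT_DFAT and 25.4% of those of eWAT_DFAT, and without cells of other marker lists the level in eWAT_DFAT was 5.28 CPM. Of the 15 iWAT_DFAT cells with at least 10 *Ccl9* UMIs, 14 held at least 3 stromal markers, and of the 11 in eWAT_DFAT 7 did, with a *Ptprc* UMI in 1 and *Col1a1* at 83.8 CPM against 694 CPM in the other cells. The genes named as most like *Ccl9* were *Fabp4*, *Plin1*, *Hp*, *Cd36* and *Enpp2*, among them a fatty acid-binding protein, a lipid droplet coat protein and a fatty acid transporter (r of 0.16 to 0.27 in the DFAT libraries). In eWAT_SVF, where 2 cells held at least 3 adipocyte markers, the r with *Fabp4* was 0.17 and that with *Hp* 0.21. The r with another member, *Ccl7*, was higher there, at 0.23, against 0.040 in iWAT_DFAT and 0.081 in eWAT_DFAT. In iWAT_SVF the r with *Fabp4* was 0.076 and that with *Ccl7* 0.067.

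*Ccl5* was held by a handful of cells in each library. It was at 8.52 CPM (8.10 to 8.95) in iWAT_DFAT, 1.98 CPM (1.78 to 2.19) in eWAT_DFAT, 0.893 CPM (0.767 to 1.03) in iWAT_SVF and 1.21 CPM (1.06 to 1.37) in eWAT_SVF. Yet 2 cells held 50% or more of its UMIs in iWAT_DFAT, eWAT_DFAT and iWAT_SVF, and 1 cell did in eWAT_SVF. The fullest cell of iWAT_DFAT had 487 *Ccl5* UMIs, and the 11 cells with at least 10 held 91.9% of the library's. Without cells of at least 10 *Ccl5* UMIs, a setting chosen after these values were seen, the DFAT levels were 0.687 and 0.776 CPM, and the log2 ratio of iWAT to eWAT went from 2.11 to -0.18. Levels of *Ccl5* per library therefore describe single cells.

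Summed over those 11 cells, interferon-induced genes were higher than in the other cells. All 11 held UMIs of at least 3 stromal markers, as did 98.7% of all cells of iWAT_DFAT. None held a *Ptprc* UMI, but that gene was at 0.0109 CPM in the other cells. The stromal and *Ptprc* counts thus do not set the 11 cells apart from the rest. Of the 11, 5 held a UMI of at least 1 of the 10 immune markers. In the library 9 of these markers were under 1 CPM and the highest was at 18.4 CPM, and the share of all cells with such a UMI was not measured. The 11 cells had 326 CPM of *Isg15*, 320 CPM of *Ifit1* and 456 CPM of *Cxcl10*, against 35.1, 19.0 and 12.1 CPM in the other cells of iWAT_DFAT. *Isg15* had a UMI in 9 of the 11, *Ifit1* in 7 and *Cxcl10* in 4, so that part of them carried these sums. *Ccl2* was at 3757 CPM in them and 2815 CPM in the rest, and *Nfkbia* at 366 and 465 CPM. Other members were also higher in these 11 cells, *Ccl8* at 161 CPM against 35.6 CPM and *Ccl11* at 407 CPM against 57.5 CPM. The 3 such cells of eWAT_DFAT had 1519 CPM of *Isg15* against 16.3 CPM, with a UMI in 2 cells, and the 5 of eWAT_SVF 747 CPM against 66.7 CPM, with a UMI in 4. In iWAT_SVF 1 of the 3 such cells held *Isg15*, at 280 CPM over the 3 against 1.77 CPM.

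*Ccl20* was rare in each library and highest in eWAT_DFAT. It was at 2.48 CPM (2.26 to 2.72) in iWAT_DFAT, 6.69 CPM (6.32 to 7.07) in eWAT_DFAT, 0.662 CPM (0.554 to 0.785) in iWAT_SVF and 1.45 CPM (1.29 to 1.63) in eWAT_SVF. In both culture routes eWAT was the higher depot. A UMI was found in 2.03%, 3.84%, 0.633% and 1.29% of the cells (0.918%, 1.62%, 0.216% and 0.460% after thinning), and 25, 17, 7 and 13 cells held 50% of the UMIs, in the order iWAT_DFAT, eWAT_DFAT, iWAT_SVF and eWAT_SVF. Free RNA had 3.45, 6.48, 0.560 and 1.97 CPM of *Ccl20*, near its level in the cells (ratio of cells to free RNA 0.720, 1.03, 1.18 and 0.737), so cells with a single UMI cannot be told apart from background.

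In eWAT_DFAT, the 23 cells with at least 10 *Ccl20* UMIs held 55.6% of them, and the fullest held 119. All 23 held at least 3 stromal markers, as did 91.5% of all cells of the library. None of the 23 held a *Ptprc* UMI, but that gene was at 0.0812 CPM in the other cells. A UMI of at least 1 of the 10 immune markers was found in 11 of the 23. In the library 9 of these markers were under 1 CPM and the highest was at 13.1 CPM. The share of all cells with such a UMI was not measured, so neither count sets the 23 cells apart. They had 2562 CPM of *Cxcl1* against 1052 CPM in the other cells, 500 CPM of *Cxcl2* against 129 CPM, 5447 CPM of *Ccl2* against 3021 CPM and 2466 CPM of *Saa3* against 676 CPM. The 8 such cells of iWAT_DFAT had less *Cxcl1* and *Cxcl2* than the other cells there, at 1222 against 1408 CPM and 11.6 against 117 CPM, with more *Ccl2* (3956 against 2815 CPM) and *Saa3* (4943 against 3112 CPM). *Cxcl5* was higher in such cells of both libraries, at 4449 against 3345 CPM in iWAT_DFAT and 3393 against 1561 CPM in eWAT_DFAT. Without cells of at least 10 *Ccl20* UMIs, also chosen after the values were seen, *Ccl20* was at 2.98 CPM in eWAT_DFAT and 1.78 CPM in iWAT_DFAT.

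**Figure D2:**
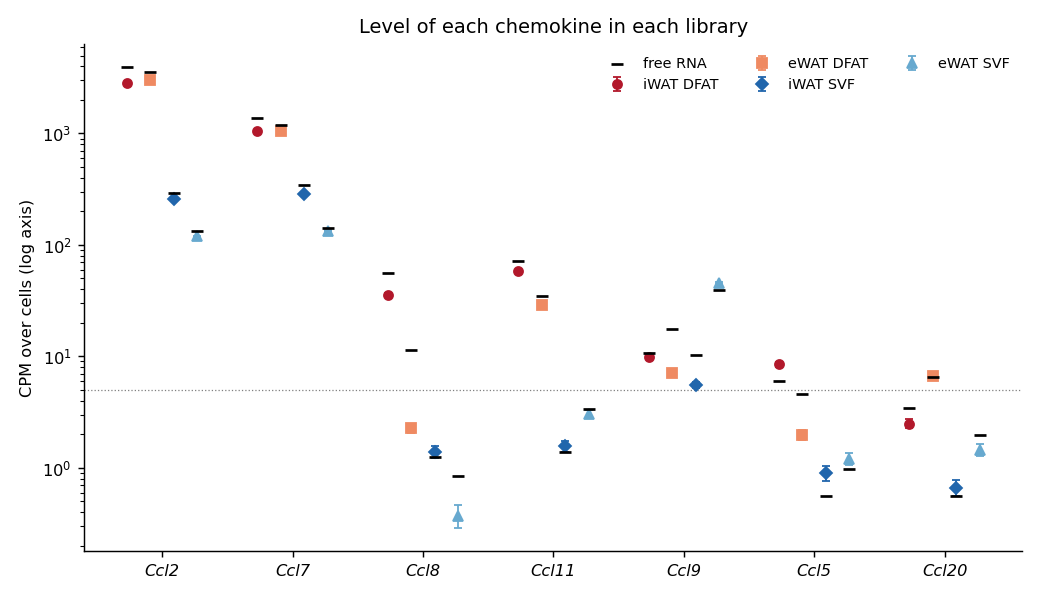
Level of each chemokine in the cells of each library in CPM on a log axis, with exact Poisson intervals of 95%; black bars give the level in droplets of 1 to 100 UMIs (free RNA) and the dotted line 5 CPM. *Ccl2*, *Ccl7* and *Ccl11* are higher in both DFAT libraries than in both SVF libraries, *Ccl8* stands out in iWAT_DFAT at 35.8 CPM and *Ccl9* in eWAT_SVF at 45.8 CPM.

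**Figure D3:**
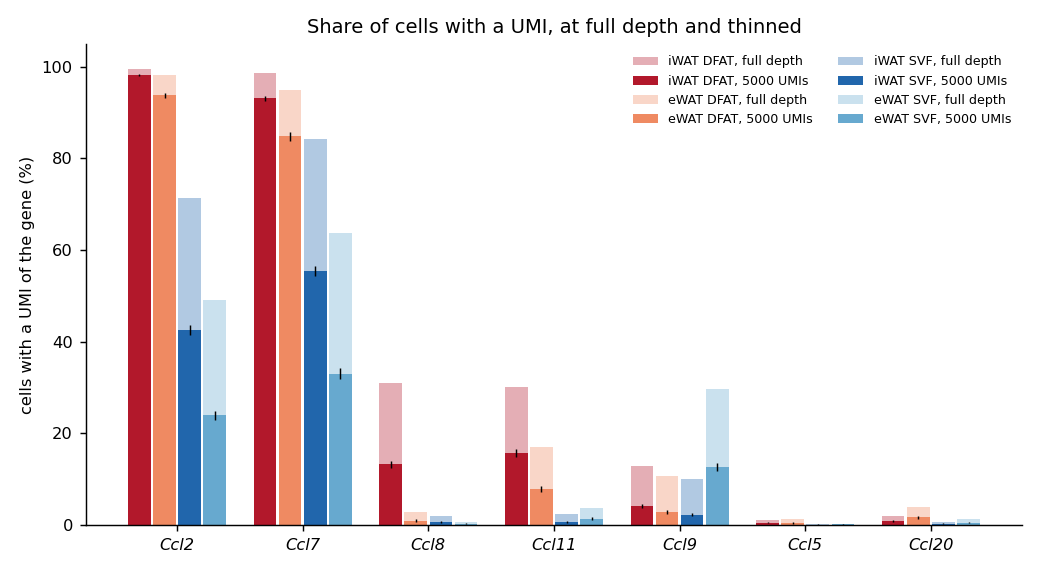
Percent of cells with a UMI of each chemokine, at full depth (pale bars) and with each cell thinned to 5000 UMIs (dark bars, with exact binomial intervals of 95%). Thinned shares of *Ccl2* are 98.3% and 93.8% in the DFAT libraries and 42.5% and 23.9% in the SVF libraries.

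The 7 genes spanned a wide range from genes of nearly all cells to genes of a few. For comparison, the median gene at or above 5 CPM had 40.3% to 42.0% of its UMIs in the top 10% of cells. At full depth *Ccl2* was more evenly spread than that in the DFAT libraries (24.4% in iWAT, 32.8% in eWAT) and less evenly in the SVF libraries (55.8% and 69.7%). *Ccl7* was at 26.1%, 34.1%, 41.4% and 51.5%, close to the median gene in iWAT_SVF. The reading of the SVF libraries depended on depth. Thinned to 5000 UMIs, the median gene was at 83.3% in iWAT_SVF and 84.3% in eWAT_SVF. *Ccl2* was then below it, at 59.1% and 78.1%, and so was *Ccl7*, at 43.6% and 58.3%. In the thinned DFAT libraries *Ccl2* was at 22.5% and 32.5%, against 78.8% and 81.8% for the median gene. The share rises as a gene becomes rarer, and it reads 100% for any gene found in under 10% of the cells. The Fano factor, the variance over cells divided by the mean at 5000 UMIs per cell, was 1.05 for the median gene of each library. *Ccl2* was at 5.28 and 15.5 in iWAT_DFAT and eWAT_DFAT, where 0.509% and 0.224% of genes were above it, and *Ccl5* reached 47.3 in iWAT_DFAT. The Fano factor tends to rise with the level of a gene, and *Ccl2* was at 2816 and 3031 CPM in these libraries. Its rank was not set apart from its level.

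**Figure D4:**
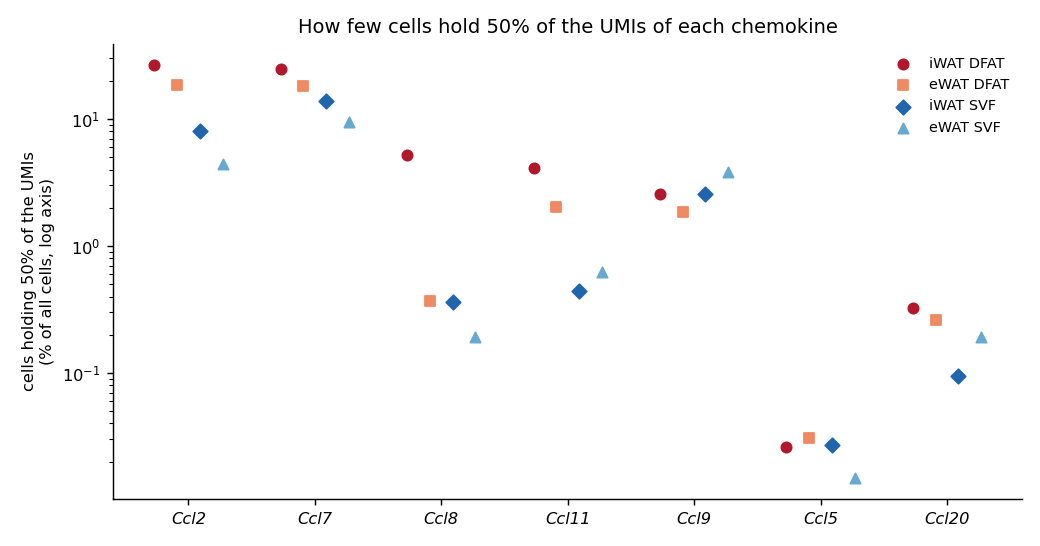
Percent of the cells of each library (log axis) that together held 50% of the UMIs of each chemokine, counted from the fullest cell down. The points run from 26.8% for *Ccl2* in iWAT_DFAT to 0.0148%, a single cell, for *Ccl5* in eWAT_SVF.

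The first question of the design was how the depots differ among DFAT cells. All 7 genes reached 5 CPM in at least 1 of the DFAT libraries. Of these, 2 were over 2-fold higher in iWAT_DFAT (*Ccl5* and *Ccl8*), where 8.29% of all genes tested were, and 1 was over 2-fold higher in eWAT_DFAT (*Ccl20*), where 3.95% were. *Ccl2*, *Ccl7*, *Ccl9* and *Ccl11* lay within 2-fold. *Ccl5* and *Ccl8* reached 5 CPM in iWAT_DFAT only and *Ccl20* in eWAT_DFAT only, so each could be counted as higher in that library alone. The median log2 ratio of the 7 was 0.48, and that of all 10384 genes tested 0.091. *Ccl5* left this count when its 11 and 3 fullest cells were left out, and *Ccl20* when its 8 and 23 were.

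Among SVF libraries, 3 of the 7 genes reached 5 CPM. *Ccl2* and *Ccl7* were over 2-fold higher in iWAT_SVF, by 2.15-fold each, where 2.94% of all genes were, and *Ccl9* was over 2-fold higher in eWAT_SVF, where 3.94% were. With each cell given equal weight, the *Ccl2* log2 ratio was 0.83 in place of 1.11, under the 2-fold line. Cells with endothelial markers had 1590 CPM of *Ccl2* in iWAT_SVF (58 cells) and 912 CPM in eWAT_SVF (168 cells, with 14.2% of its UMIs), and the mesothelial-marker cells of eWAT_SVF had 290 CPM and 16.4%. Without cells of the other marker lists the log2 ratio of *Ccl2* was 1.48 and that of *Ccl7* 1.07.

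The second question was how DFAT cells differ from SVF cells of the same depot. In iWAT, 5 of 6 genes at 5 CPM (*Ccl2*, *Ccl5*, *Ccl7*, *Ccl8* and *Ccl11*) were over 2-fold higher in DFAT cells, where 9.91% of all genes tested were, and none was over 2-fold higher in SVF cells, where 5.18% were. *Ccl9* was 1.78-fold higher in iWAT_DFAT. Without cells of at least 10 *Ccl5* UMIs the count was 4, since *Ccl5* was then under 5 CPM, with a log2 ratio of 1.89 in place of 3.25. In eWAT, 4 of 5 genes (*Ccl2*, *Ccl7*, *Ccl11* and *Ccl20*) were over 2-fold higher in DFAT cells, where 6.44% of all genes were, and *Ccl9* was over 2-fold higher in SVF cells, where 6.67% were. Without cells of at least 10 *Ccl20* UMIs the first count was 3, since *Ccl20* was then under 5 CPM, with a log2 ratio of 1.54 in place of 2.20. The 5 CPM limit bears on these counts. In iWAT, *Ccl5*, *Ccl8* and *Ccl11* reached it in DFAT cells only, as *Ccl11* and *Ccl20* did in eWAT. Such genes could not be counted as higher in SVF cells. The median log2 ratio of the genes at 5 CPM, these included, was 3.35 in iWAT and 2.97 in eWAT. For all genes under the same limit it was 0.088 and 0.070. Each library entered 2 of the 4 comparisons, so these are not independent.

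**Figure D5:**
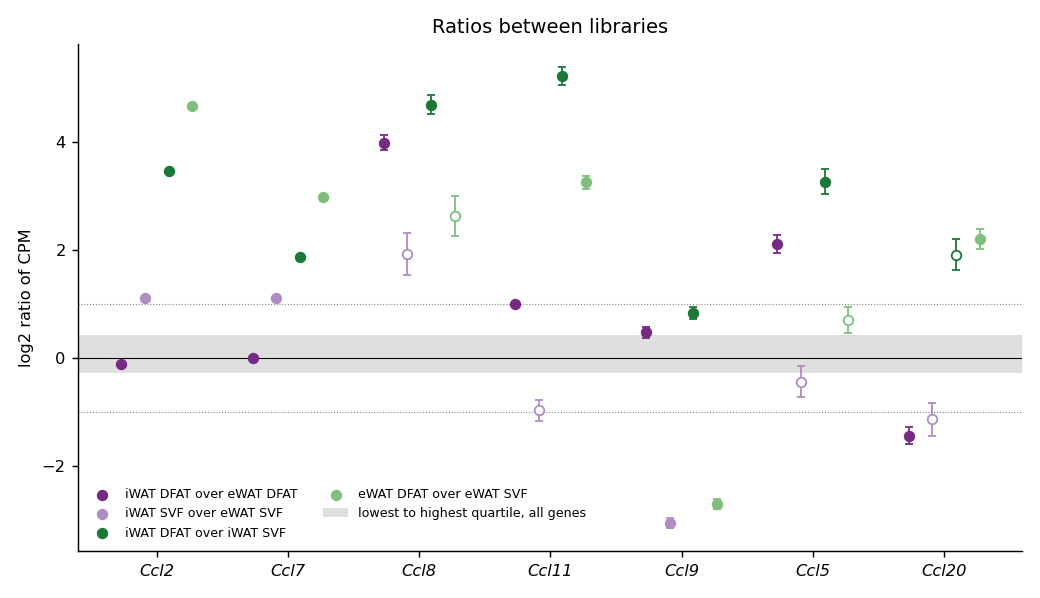
Log2 ratio of CPM of each chemokine in the 4 comparisons, with exact conditional binomial intervals of 95%; filled points reached 5 CPM in the higher library, open points did not, dotted lines mark 2-fold, and the grey band runs from the lowest lower quartile to the highest upper quartile of all genes over the 4 comparisons (-0.28 to 0.43). The ratio of DFAT to SVF of *Ccl11* in iWAT, 5.21, is the highest point and that of *Ccl9* between the SVF depots, -3.05, the lowest.

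Related genes gave the following values. Of 13 other CC chemokine genes, 2 reached 5 CPM in any library, *Ccl25* (20.4, 20.7, 12.7 and 11.1 CPM in iWAT_DFAT, eWAT_DFAT, iWAT_SVF and eWAT_SVF) and *Ccl27a* (6.46, 6.01, 8.74 and 6.86 CPM). The macrophage products *Ccl3* and *Ccl4* were at most at 0.787 CPM. Of 14 receptors, only *Ackr3* reached 5 CPM, at 77.9, 2.32, 13.9 and 18.9 CPM. *Ackr3* encodes a receptor of the CXC chemokine CXCL12, not of the ligands described here. *Ccr1*, *Ccr2*, *Ccr3* and *Ccr6*, receptors of the ligands described here, were at 0 to 0.582 CPM.

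All 9 NF-κB subunits and feedback genes reached 5 CPM. Of these, 8 were over 2-fold higher in iWAT_DFAT than in iWAT_SVF, 5 of 9 in eWAT_DFAT than in eWAT_SVF and 4 of 9 in iWAT_DFAT than in eWAT_DFAT. The shares of all genes tested were 9.91%, 6.44% and 8.29% in that order. None was over 2-fold in the opposite direction, where 5.18%, 6.67% and 3.95% of all genes were. Between the SVF depots 7 of the 9 reached 5 CPM and 0 were over 2-fold either way, where 2.94% of all genes were higher in iWAT_SVF and 3.94% in eWAT_SVF. *Nfkbia* was at 464, 226, 44.3 and 42.5 CPM and *Tnfaip3*, another feedback inhibitor, at 110, 16.0, 2.73 and 1.25 CPM. Both were over 2-fold higher in iWAT_DFAT than in eWAT_DFAT, where *Ccl2* and *Ccl7* were within 2-fold. Of 12 upstream signalling genes (cytokines, receptors and the adaptor *Myd88*) 9 reached 5 CPM in a DFAT library, and 5 were over 2-fold higher in iWAT_DFAT than in eWAT_DFAT, with 1 the opposite way (*Il1a*), 5 of 8 in iWAT_DFAT than in iWAT_SVF and 1 of 8 in eWAT_DFAT than in eWAT_SVF. The shares of all genes tested were 8.29%, 3.95%, 9.91% and 6.44% in that order. Between the SVF depots 0 of 7 were over 2-fold higher in iWAT_SVF or in eWAT_SVF, against 2.94% and 3.94% of all genes. *Il1r1*, the interleukin-1 receptor, was at 881, 183, 106 and 95.5 CPM, while the cytokines *Il1b*, *Tnf* and *Ifng* were under 1 CPM in each library and *Il1a* reached 12.3 CPM in eWAT_DFAT.

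All 5 CXC chemokines of the list were over 2-fold higher in iWAT_DFAT than in iWAT_SVF, and 3 of 4 were in eWAT_DFAT than in eWAT_SVF, with 1 the opposite way (*Cxcl12*), against 9.91%, 6.44% and 6.67% of all genes. Between the depots 3 of 5 were over 2-fold higher in iWAT_DFAT (8.29% of all genes), 2 of 3 in iWAT_SVF (2.94%) and 1 in eWAT_SVF (3.94%). The neutrophil attractants *Cxcl1* and *Cxcl5* had both DFAT libraries above both SVF libraries, as *Ccl2* did. *Cxcl1* was at 1408, 1059, 59.2 and 21.5 CPM and *Cxcl5* at 3347, 1569, 24.7 and 4.22 CPM. *Cxcl12*, a stromal chemokine for leukocyte retention, differed, at 583, 147, 169 and 477 CPM. *Saa3* was at 3115, 683, 0.431 and 80.9 CPM. Of 5 interferon-induced genes 4 reached 5 CPM, and all 4 were over 2-fold higher in iWAT_DFAT than in eWAT_DFAT and than in iWAT_SVF (8.29% and 9.91% of all genes), while between the SVF depots all 4 were over 2-fold higher in eWAT (3.94%). In eWAT 3 of the 4 were over 2-fold higher in SVF than in DFAT cells and 0 the opposite way (6.67% and 6.44%). *Isg15* was at 35.7, 17.0, 1.88 and 67.2 CPM, highest in eWAT_SVF.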

How the data were processed

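The raw count matrices deposited by the authors hold UMI counts per gene and droplet, not normalized. By the study's methods, Cell Ranger counted reads on mm10 with intronic reads included. The labels' processing notes give version 7.0.0, while the matrix headers give 7.1.0 for 3 libraries and 4 for iWAT_SVF. Whether intronic reads were counted alike in iWAT_SVF is therefore not known, which bears on each ratio with that library, and this was not tested. The deposited droplets were filtered as stated in the text, with a minimum of 5000 UMIs in place of the 500 of the study, which would keep 7796, 6988, 7843 and 7353 barcodes. No doublet caller was run; the deepest 5% of cells were left out as an alternative.

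UMIs were summed per library and scaled to CPM (183664704 to 199357348 UMIs in cells, where 3 UMIs, the limit that a count of 0 allows, make 0.0150 to 0.0163 CPM). With 1 library per group no test was possible: a gene was counted as higher past 2-fold with at least 5 CPM in the higher library. A gene that reached 5 CPM in only 1 library of a pair could thus be counted as higher in that library only. Thinning drew 5000 UMIs per cell without replacement, and no cell was left out by it. Genes most like a member were those in its top 20 by Pearson's r of log values per 10000 UMIs, in the most libraries, 5 named per gene; only genes and members found in at least 5% of cells entered. Cells were grouped by UMIs of at least 3 markers of a list, and no cluster was named. The members, gene lists and markers were chosen with earlier results of these data known. *Ccl19* and *Ccl27a* have several identifiers, which were summed. Scripts ran under Python 3.11.15 with edgeR 4.0.16 (TMM factors only), pandas 2.3.3, numpy 2.4.6, matplotlib 3.10.9 and, for intervals, scipy 1.17.1, and were tested on simulated data.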

Additional observations from a re-analysis of the deposited data

Results flagged for a closer look

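The log2 ratio of *Ccl2* between depots was -0.11 among DFAT libraries (iWAT to eWAT) and 1.11 among SVF libraries. *Ccl9* was singled out for opposite directions. Its log2 ratio of iWAT to eWAT was 0.48 among DFAT libraries and -3.05 among SVF libraries, and its log2 ratio of DFAT to SVF was 0.83 in iWAT and -2.69 in eWAT. Both genes were picked because the ratio of 1 pair of libraries pointed the opposite way from that of the other pair, with each interval off 0 and at least 5 CPM in the higher library of each pair. The depot ratios of *Ccl5* (2.11 and -0.44), *Ccl11* (0.99 and -0.97) and *Ccl7* (-0.0029 and 1.10) also had opposite signs, but both *Ccl5* signs turned without its fullest cells (-0.18 and 0.67), *Ccl5* and *Ccl11* were under 5 CPM in both SVF libraries and the first interval of *Ccl7* held 0. With 1 library per group neither difference was tested.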

How the results depend on the processing

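Over 28 log2 ratios and 8 alternatives (224 values), 2 moved by over 1.5 times and 5 changed sign. Both large moves were of *Ccl5* below 5 CPM without cells of other marker lists, from -0.44 to 1.23 between the SVF depots and from 0.71 to 2.26 between DFAT and SVF in eWAT. The sign changes were the former of these and 4 of *Ccl7* between the DFAT depots, where it lay near 0 (-0.0029, up to 0.070). The count of members over 2-fold higher in iWAT_SVF than in eWAT_SVF was 1 in place of 2 with the mean of cell CPM, and that of members higher in eWAT_SVF was 2 in place of 1 with no filter on low values (*Ccl20*). The other 78 of 80 counts were within 1.5 times of the count reported. After the values were seen, cells with at least 10 UMIs of *Ccl5* or of *Ccl20* were left out in turn. Without the *Ccl5* cells, 1 member in place of 2 was over 2-fold higher in iWAT_DFAT than in eWAT_DFAT, and the *Ccl5* log2 ratio there was -0.18 in place of 2.11. Its ratio between the SVF depots was 0.67 in place of -0.44 and that of DFAT to SVF in eWAT 2.74 in place of 0.71. Without the *Ccl20* cells, 0 members in place of 1 were over 2-fold higher in eWAT_DFAT. These moves follow from leaving out the cells with the most UMIs of the gene. Such cells held 60.8% to 91.9% of the *Ccl5* UMIs of a library. Of the *Ccl20* UMIs they held 28.5% in iWAT_DFAT and 55.6% in eWAT_DFAT. No paired analysis was possible because each group is 1 library. *Ccl5*, *Ccl8* and *Ccl20* rest on few cells in the SVF libraries, where 16 to 146 held a UMI, and smaller differences of these genes were not detectable at this depth.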
